A study of Mus musculus with 13 samples.

Results

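Chaperones and their co-chaperones were examined in the RNA-seq of double-positive thymocytes, the CD4+CD8+ stage of T cell development. Rad21 knockout cells were set against wild type cells. Rad21 is part of cohesin, the protein ring that holds sister chromatids and chromatin loops together. The members were chosen by symbol: every gene of the table whose symbol begins with Hspa, Hspb, Hspd, Hspe, Hsph, Hsp90, Dnaja, Dnajb or Dnajc, together with the chaperonin subunit genes Tcp1, Cct2 to Cct5, Cct6a, Cct7 and Cct8, the genes Bag1 to Bag6, and the heat shock factor genes Hsf1 and Hsf2. This gave 84 of the 17849 genes in the table, and 78 of them were among the 12003 genes with enough counts to be tested. No measured value entered the choice, although the set was proposed with earlier results of these data known.

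Chaperones bind unfolded or partly folded proteins and help them to reach or regain their native state. Hsp70 proteins do this in cycles of ATP hydrolysis that J-proteins start and that nucleotide exchange factors, the Hsp110 and BAG proteins among them, end; Hsp90 and the TRiC/CCT chaperonin act on narrower sets of clients, and each compartment of the cell has its own versions. Heat shock factor 1, encoded by Hsf1, drives transcription of many cytosolic and mitochondrial chaperone genes when unfolded protein builds up, and the unfolded protein response does so for chaperones of the endoplasmic reticulum.

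The comparison set 2 libraries from Rad21 knockout (KO) thymocytes against 2 from wild type thymocytes, all from sorted double-positive cells of the mouse thymus. The labels of these libraries give no age or strain and do not say how, or under which promoter, Rad21 was deleted. They do not name separate animals either, so the spread behind each p-value is that between these libraries and may be technical. The question was which chaperone genes differed in transcript level between Rad21 KO and wild type thymocytes.

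Levels are given below as CPM, counts divided by the library size after TMM scaling, in the order KO replicates 1 and 2, then wild type replicates 1 and 2. They are not divided by transcript length and are not compared between genes. Changes are log2 ratios of KO over wild type with a standard error (SE). The SE was derived from edgeR's quasi-likelihood test, as the absolute log2 change divided by the square root of the F statistic. A gene was called where its adjusted p from that test, taken over all genes tested, was below 0.05.

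The KO libraries held 9384505 and 6914654 counts, and the wild type libraries 6633506 and 6500819. Rad21 itself stood at 67.9 and 65.7 CPM in KO and 271 and 233 CPM in wild type, a log2 change of -1.91 (SE 0.12, adjusted p = 0.000862 by edgeR), so transcript remained in the KO libraries. All 12 marker genes of double-positive thymocytes were detected in every library, and Cd4, Cd8a, Cd8b1 and Rag1 each reached at least 870 CPM in every library; 5 of the 12 fell in KO and 1, Ptcra of the pre-T cell receptor, rose (log2 change 1.07, adjusted p = 0.0297 by edgeR). The summed level of the 12 was 14089 and 12348 CPM in KO against 19429 and 17809 CPM in wild type. Marker lists of other cell types moved both ways. Summed myeloid markers were at 16.6 and 21.0 CPM in KO against 29.8 and 34.9 CPM in wild type, with 1 of 4 tested called lower. Fibroblast and endothelial markers were at 96.6 and 104.5 CPM against 152.9 and 150.3 CPM, nearly all from Pecam1, which fell, while Cdh5 and Pdgfra were at 0. Thymic epithelial markers were at 27.1 and 30.3 CPM against 19.0 and 19.1 CPM. Epcam rose (log2 change 3.08, adjusted p = 0.00355 by edgeR), and the other tested markers of this list did not. Psmb11 was at 14.9 and 16.3 CPM against 15.0 and 15.5 CPM (log2 change 0.03), and Aire had overlapping groups at 1.23 to 2.46 CPM. Krt5, Krt8, Krt14 and Foxn1 were each at most 0.683 CPM. Summed B cell markers were at 19.0 to 24.7 CPM (3 of 8 listed markers tested) and dendritic cell markers at 11.8 to 16.4 CPM (3 of 6). Erythroid markers were at 3.60 to 8.48 CPM (3 of 6), and NK and gamma delta T cell markers at 8.59 to 17.5 CPM (1 of 8). None of the tested markers of these types was called, and the untested ones could not be. The part of such shifts in the chaperone values was not tested, and in bulk samples fewer cells of a type and less RNA per cell cannot be told apart. The KO replicate 1 library stood apart in that Lars2 and the overlapping Gm15564 held 34.5% of its counts, against 12.6%, 5.84% and 7.47% in the others; with these 2 genes removed before normalization, 17 members were again called higher.

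Of the 78 members tested, 17 rose in Rad21 KO, 1 fell and 60 did not pass. Over all genes tested, 12.8% were called, 7.6% higher and 5.17% lower. An unadjusted p below 0.05 by edgeR was reached by 40 of the 78 members and by 3531 of the 12003 genes tested. Both KO libraries lay above both wild type libraries for 39 members and below for 16, while 29.7% of all genes lay above and 29.2% below. The median log2 change of the members was 0.16, beside -0.01 over all genes. Of the 17 that rose, 9 rose at least 2-fold and 3 less than 1.5-fold. The other 14, called and at least 1.5-fold higher, stand beside 6.34% of all genes tested. The summed level of all members was 10694 and 10743 CPM in KO against 7580 and 7078 CPM in wild type, a ratio of 1.46, and the ratio was 1.39 without the inducible Hsp70 genes Hspa1a and Hspa1b. When each library was left out in turn, 11 of the 17 passed every time. Scaling by library totals alone lowered the median of all genes to -0.29 and that of the members to -0.13, and left 343 genes called higher and 851 lower, against 912 and 621; members were 0.16 above the median of all genes under both scalings, and 7 were still called higher: Hspa1a, Hspa1b, Hsph1, Hspd1, Hspe1, Hspa5 and Dnajb2.

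**Figure D1:**
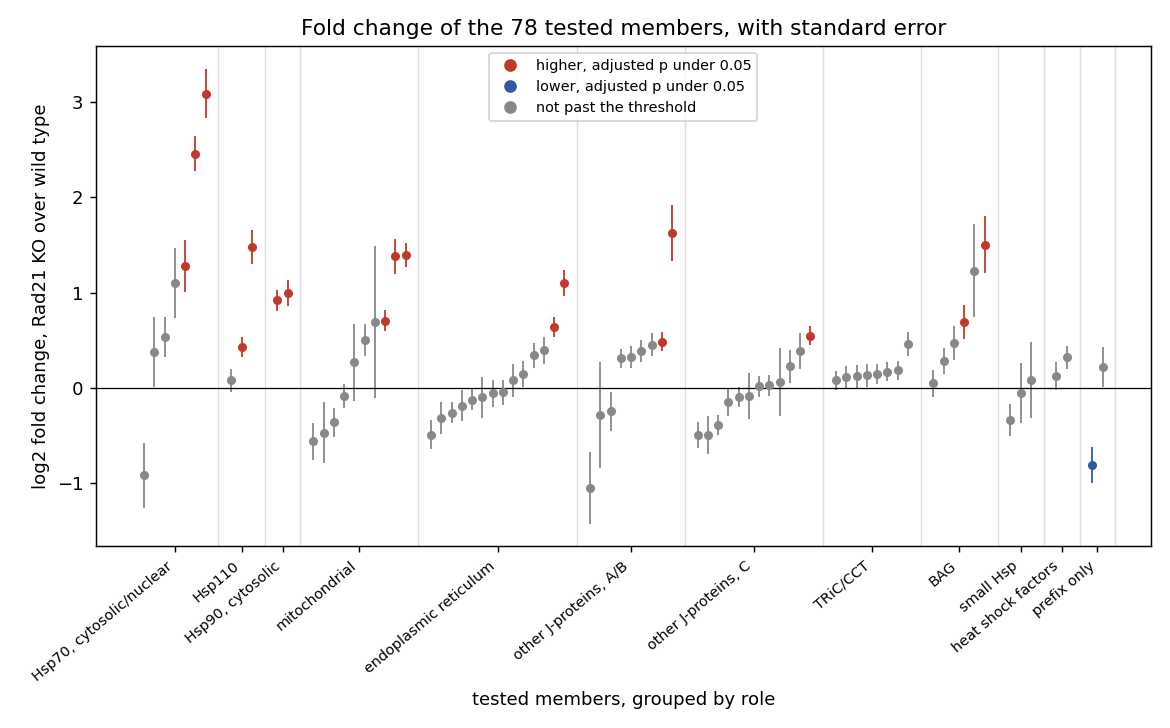
Log2 change of each tested member (KO over wild type, bars ±1 SE derived from the edgeR test statistic, 2 libraries per genotype), grouped by role, with called members marked. The called rises sit mostly among the Hsp70, Hsp110, Hsp90, mitochondrial and endoplasmic reticulum chaperones, while the 8 TRiC/CCT subunits lie between 0.08 and 0.46 and none is called.

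Among the cytosolic and nuclear Hsp70 genes, 3 of 7 rose (42.9%, beside 7.6% of all genes tested), with a median log2 change of 1.10. Hspa1a, a stress-inducible Hsp70, was at 203 and 283 CPM in KO and 35.7 and 21.3 CPM in wild type. Its close copy Hspa1b was at 371 and 476 CPM in KO and 87.9 and 65.9 CPM in wild type. The groups were far apart for both, and KO replicate 2 was the higher KO library. The log2 changes were 3.09 (SE 0.26, adjusted p = 0.00154 by edgeR) for Hspa1a and 2.46 (SE 0.18, adjusted p = 0.00119) for Hspa1b. The genes are near-identical and the sources used here do not say how shared reads were assigned, so their split is uncertain; with their counts summed as 1 gene the log2 change was 2.66 (adjusted p = 0.00129).

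The likeness of the pair reaches into their promoters, which are shown for that reason. In RefSeq's GRCm38.p6 windows the 250 bases before the start site of Hspa1a (chr17:34972157-34972406, minus strand) and of Hspa1b (chr17:34959239-34959488, minus strand) were identical at 247 positions (98.8%). Capitals mark GAANNTTC, the core of a heat shock element in its 2-unit form, which lay 97 to 104 bases before both starts.
Hspa1a: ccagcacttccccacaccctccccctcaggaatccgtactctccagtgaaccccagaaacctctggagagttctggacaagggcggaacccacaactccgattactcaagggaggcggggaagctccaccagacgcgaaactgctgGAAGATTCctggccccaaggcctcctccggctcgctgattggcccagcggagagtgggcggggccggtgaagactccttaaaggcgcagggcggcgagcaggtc
Hspa1b: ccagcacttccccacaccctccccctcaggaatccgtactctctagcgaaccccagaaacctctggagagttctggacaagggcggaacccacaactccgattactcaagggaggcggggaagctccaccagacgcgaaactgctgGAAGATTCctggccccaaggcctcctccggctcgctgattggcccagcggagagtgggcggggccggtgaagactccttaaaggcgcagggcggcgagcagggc

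Hspa2, an Hsp70 best known from the testis, was at 13.0 and 12.1 CPM in KO and 6.15 and 4.15 CPM in wild type, with a log2 change of 1.28 (SE 0.27, adjusted p = 0.0268 by edgeR). Without wild type replicate 2 its change was 1.02 and did not pass. Hspa8, the constitutive Hsp70 of the cytosol, was at 1711 and 1094 CPM in KO and 1045 and 899 CPM in wild type. Both KO libraries were above both wild type libraries, but KO replicate 1 was far above KO replicate 2, and the log2 change of 0.53 (SE 0.21) did not pass (adjusted p = 0.149). Without KO replicate 2 it was 0.83 and passed (adjusted p = 0.0103). Hspa1l, a testis-enriched relative that lies beside Hspa1a, was at 2.19 and 2.22 CPM in KO and 4.37 and 4.02 CPM in wild type. Its log2 change of -0.92 (SE 0.35, adjusted p = 0.131) did not pass and had the sign opposite to its neighbour's. Hspa12b, a distant Hsp70 relative, ranged from 3.83 to 7.94 CPM with overlapping groups.

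Of the Hsp110 genes, whose products exchange nucleotide on Hsp70, 2 of 3 rose, beside 7.6% of all genes tested. Hsph1 was at 292 and 427 CPM in KO and 126 and 133 CPM in wild type, a log2 change of 1.47 (SE 0.18, adjusted p = 0.00409 by edgeR). Every KO library held more than every wild type library, again with KO replicate 2 on top. Hspa4 was at 165 and 185 CPM in KO and 132 and 127 CPM in wild type, a log2 change of 0.43 (SE 0.11, adjusted p = 0.0412). That call was lost without KO replicate 2 (0.36), without wild type replicate 1 (0.46) and without wild type replicate 2 (0.40). Hspa4l, the third of the family, had overlapping groups at 130 and 152 CPM against 138 and 128 CPM.

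Both cytosolic Hsp90 genes rose by similar amounts. The stress-inducible Hsp90aa1 was at 810 and 999 CPM in KO and 472 and 434 CPM in wild type, a log2 change of 1.00 (SE 0.13, adjusted p = 0.00574 by edgeR). The constitutive Hsp90ab1 was at 1251 and 1201 CPM in KO and 672 and 625 CPM in wild type, a log2 change of 0.92 (SE 0.11, adjusted p = 0.00391). Neither gene's groups overlapped, and both calls held without any 1 library.

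**Figure D2:**
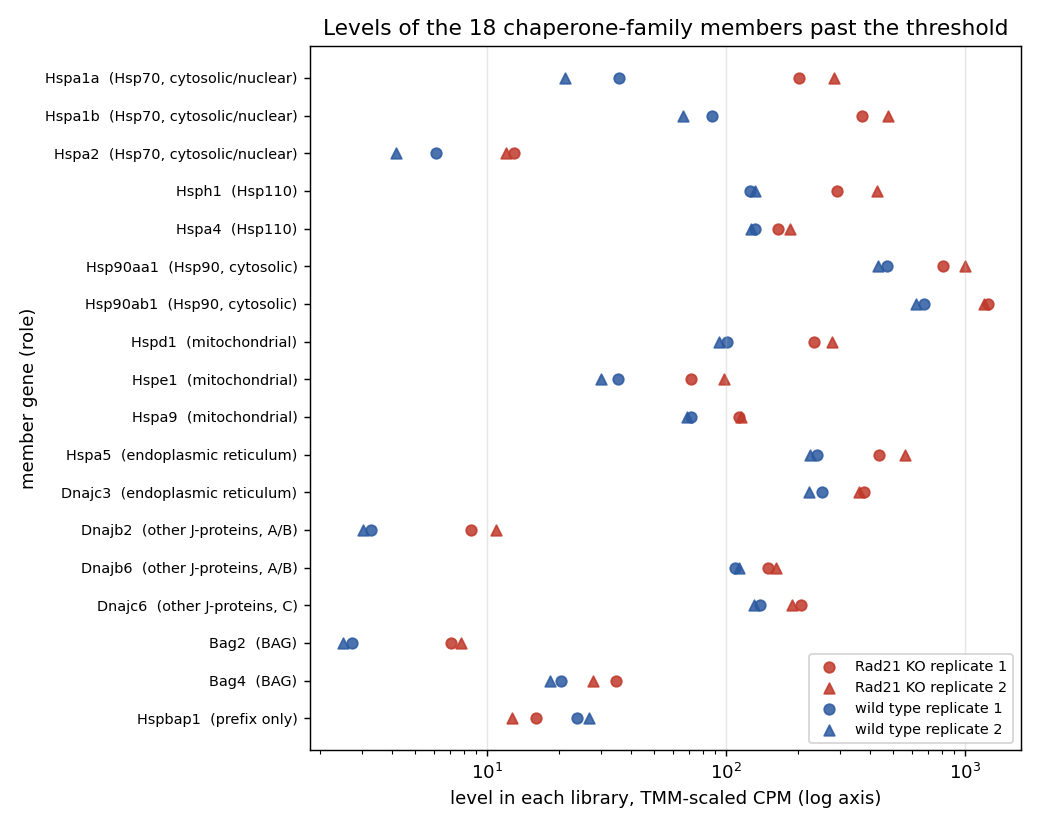
Level of the called members in each library (CPM on a log axis, 2 KO and 2 wild type libraries, one point per library). For Hspa1a the KO libraries sit at 203 and 283 CPM and the wild type libraries at 35.7 and 21.3 CPM; for each of the 17 members that rose both KO points lie above both wild type points, and for Hspbap1 both lie below.

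Of the 10 mitochondrial members 3 rose (30%, beside 7.6% of all genes tested). These were the 3 chaperones proper, while none of the 7 J-proteins passed, a difference that was not itself tested. At an unadjusted p below 0.05 by edgeR, 4 of the 10 were higher and 2 lower. Hspd1 encodes the Hsp60 chaperonin of the mitochondrial matrix and Hspe1 its lid, Hsp10, and the genes lie head to head. Hspd1 was at 233 and 278 CPM in KO and 101 and 93.5 CPM in wild type (log2 change 1.39, SE 0.12, adjusted p = 0.00162 by edgeR). Hspe1 was at 71.6 and 98.5 CPM in KO and 35.3 and 30.1 CPM in wild type (log2 change 1.38, SE 0.18, adjusted p = 0.00574). The log2 changes of the pair differed by far less than either SE. Hspa9, the Hsp70 of the matrix, was at 113 and 115 CPM in KO and 71.7 and 68.6 CPM in wild type (log2 change 0.70, SE 0.11, adjusted p = 0.00914).

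The shared promoter of Hspd1 and Hspe1 is shown because 1 stretch of it reads as a heat shock element towards both genes. The 250 bases before Hspe1 (chr1:55087898-55088147, plus strand, GRCm38.p6, RefSeq) hold an 18-base run, in capitals, in which the units TTC and GAA alternate at a spacing of 2 bases. It lay 72 to 89 bases before the Hspe1 start and, on the other strand, 127 to 144 bases before the Hspd1 start.
Hspe1: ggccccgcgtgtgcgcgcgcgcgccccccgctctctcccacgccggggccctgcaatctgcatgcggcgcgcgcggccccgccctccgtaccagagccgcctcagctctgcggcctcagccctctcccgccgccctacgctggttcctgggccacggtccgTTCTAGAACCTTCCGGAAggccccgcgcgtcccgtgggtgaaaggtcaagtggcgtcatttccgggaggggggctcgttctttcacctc

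The mitochondrial J-proteins did not move in 1 direction. Dnajc11, a protein of the outer and inner membrane contact complex, had overlapping groups with a log2 change of -0.09, and Dnajc19, of the import motor, was at 26.7 and 32.7 CPM in KO and 37.6 and 38.8 CPM in wild type (-0.36, adjusted p = 0.168 by edgeR). Dnajc15, an inner membrane J-protein, differed more between replicates than between genotypes. It was at 75.8 and 17.7 CPM in the KO libraries and 48.5 and 9.28 CPM in the wild type libraries, so replicate 1 exceeded replicate 2 by a log2 difference of 2.10 in KO and 2.39 in wild type. Of the 9822 tested genes whose mean reached 5 CPM, 42 were more than 2-fold apart between replicates in both genotypes. The same replicate was higher in both genotypes for 21 of the 42, and Dnajc15 was the 1 member among them. Its genotype change was 0.69 (SE 0.80, adjusted p = 0.615), it turned to -0.70 without KO replicate 1, to -0.06 without wild type replicate 2 and to 2.33 without wild type replicate 1 (adjusted p = 0.0239), and with the replicate number as a block it was 0.76 (adjusted p = 0.0412).

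**Figure D3:**
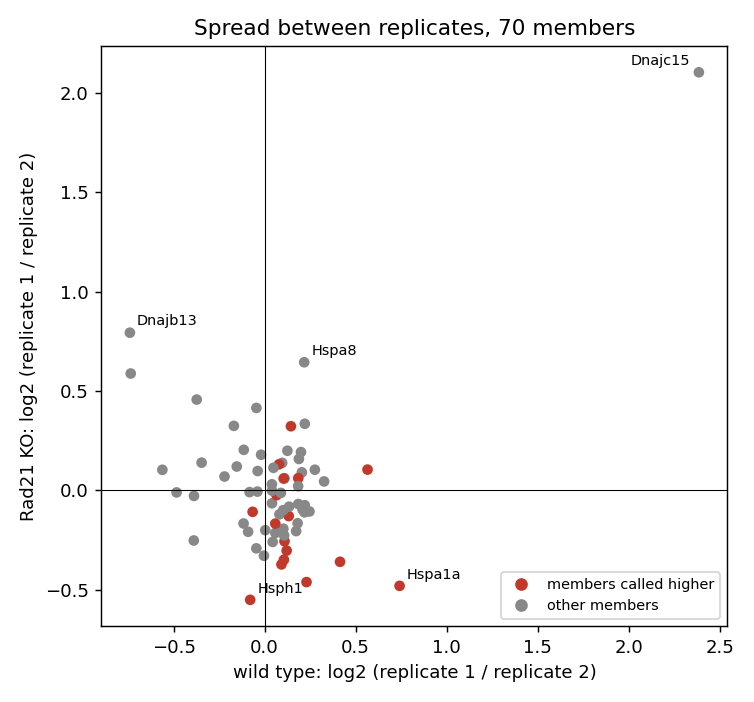
Log2 ratio of replicate 1 over replicate 2 in wild type (horizontal axis) and in KO (vertical axis) for the 70 members whose mean reached 5 CPM, 1 point per member, with members called higher in red. Most members lie near 0 on both axes, and Dnajc15 stands apart at 2.10 in KO and 2.39 in wild type.

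In the endoplasmic reticulum 2 of 14 members rose (14.3%, beside 7.6% of all genes tested) and the median log2 change was -0.05. Hspa5 encodes BiP, the Hsp70 of this compartment. It was at 435 and 563 CPM in KO and 240 and 225 CPM in wild type, a log2 change of 1.10 (SE 0.14, adjusted p = 0.0048 by edgeR). Dnajc3, a J-protein partner of BiP, was at 378 and 362 CPM in KO and 253 and 223 CPM in wild type, a log2 change of 0.64 (SE 0.11, adjusted p = 0.0123). Both genes had KO libraries well above the wild type libraries. Hsp90b1, the Hsp90 of this compartment, was at 155 and 195 CPM in KO and 138 CPM in both wild type libraries, and its change of 0.34 (SE 0.13, adjusted p = 0.133) passed only without KO replicate 1 (0.50, adjusted p = 0.0367). The J-proteins Dnajc1 and Dnajc10, the latter a disulfide reductase, stood at 156 and 181 CPM against 178 and 189 CPM and at 73.1 and 73.5 CPM against 85.4 and 90.4 CPM. Neither passed, and the Dnajc10 groups did not overlap, with KO below.

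Promoters of these 3 endoplasmic reticulum genes are shown because each held the endoplasmic reticulum stress element, CCAAT followed after 9 bases by CCACG, in capitals below (RefSeq, GRCm38.p6, 250 bases before the start). It lay 47 to 65 bases before the start of Hspa5 (chr2:34771840-34772089, plus strand) and 87 to 105 bases before that of Dnajc3 (chr14:118937682-118937931, plus strand). The Hsp90b1 window (chr10:86705445-86705694, minus strand) held it at 2 places, once on each strand, so a match was also present at a gene that did not pass.
Hspa5: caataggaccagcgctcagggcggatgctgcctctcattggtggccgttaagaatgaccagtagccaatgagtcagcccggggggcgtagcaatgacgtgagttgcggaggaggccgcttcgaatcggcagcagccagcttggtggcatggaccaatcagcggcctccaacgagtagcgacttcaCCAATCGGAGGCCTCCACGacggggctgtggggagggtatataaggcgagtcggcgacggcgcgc
Dnajc3: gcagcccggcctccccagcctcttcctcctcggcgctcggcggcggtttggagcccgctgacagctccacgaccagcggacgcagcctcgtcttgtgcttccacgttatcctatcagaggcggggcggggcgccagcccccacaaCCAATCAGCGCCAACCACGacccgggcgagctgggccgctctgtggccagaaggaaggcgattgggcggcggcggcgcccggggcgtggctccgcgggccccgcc
Hsp90b1: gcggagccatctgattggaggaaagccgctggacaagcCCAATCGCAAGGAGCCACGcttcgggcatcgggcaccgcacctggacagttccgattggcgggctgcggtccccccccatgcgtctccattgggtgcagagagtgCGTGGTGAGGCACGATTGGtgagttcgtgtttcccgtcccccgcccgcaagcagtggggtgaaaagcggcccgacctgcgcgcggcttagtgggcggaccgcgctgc

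J-proteins, which deliver clients to Hsp70 and trigger its ATPase, made up 42 of the 84 members over all compartments. Of the 39 tested, 4 rose (Dnajb2, Dnajb6, Dnajc3 and Dnajc6) and none fell. The share that rose was 10.3%, beside 7.6% of all genes tested. At an unadjusted p below 0.05 by edgeR, 10 were higher and 8 lower, and DESeq2 and limma-voom called none lower. The median log2 change of the 39 was -0.06, and KO lay above wild type for 13, below for 13 and overlapped for 13. Dnajb2, a J-protein with ubiquitin-interacting motifs, was at 8.62 and 11.0 CPM in KO and 3.28 and 3.05 CPM in wild type, a log2 change of 1.63 (SE 0.29, adjusted p = 0.0156). Dnajc6, or auxilin, uncoats clathrin vesicles with Hsp70 and was at 206 and 188 CPM in KO and 139 and 131 CPM in wild type (log2 change 0.55, SE 0.10, adjusted p = 0.0183). The groups of both were separate, but Dnajc6 did not pass without wild type replicate 2 (0.50).

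Dnajb6, a suppressor of polyglutamine aggregation, was at 150 and 162 CPM in KO and 109 and 114 CPM in wild type, a log2 change of 0.49 (SE 0.10, adjusted p = 0.0265 by edgeR). The call was lost without KO replicate 2 (0.45), wild type replicate 1 (0.45) or wild type replicate 2 (0.51). Its promoter is shown as the second with a heat shock element of 3 units before the start, in capitals, 34 to 46 bases upstream (chr5:29735648-29735897, plus strand, GRCm38.p6, RefSeq).
Dnajb6: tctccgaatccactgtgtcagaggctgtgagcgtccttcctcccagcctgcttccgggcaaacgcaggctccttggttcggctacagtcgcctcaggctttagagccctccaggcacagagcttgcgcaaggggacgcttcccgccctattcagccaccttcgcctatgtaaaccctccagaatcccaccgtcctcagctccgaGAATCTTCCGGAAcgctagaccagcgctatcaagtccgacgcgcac

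The 3 most abundant class A and B J-proteins of the cytosol that did not pass all had KO libraries above wild type. Dnajb1, the inducible Hsp40 that works with Hspa1a, was at 315 and 293 CPM in KO and 243 and 201 CPM in wild type, a log2 change of 0.45 (SE 0.12, adjusted p = 0.0527 by edgeR). It passed without KO replicate 2 (0.52), without wild type replicate 1 (0.60) and by DESeq2 (adjusted p = 0.02). Dnaja1 was at 247 and 269 CPM against 214 and 203 CPM (0.31, adjusted p = 0.0914) and Dnajb4 at 115 and 108 CPM against 95.0 and 82.4 CPM (0.32). Among class C proteins outside the organelles the signs were mixed: Dnajc5, the cysteine string protein of secretory vesicles, changed by 0.02 and Dnajc13, an endosomal protein, by -0.10, both with overlapping groups. Dnajc7, which also binds Hsp90, was at 87.3 and 85.5 CPM in KO and 115 and 112 CPM in wild type (-0.39, adjusted p = 0.0537).

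The 8 subunit genes of TRiC/CCT, the cytosolic chaperonin that folds actin and tubulin, showed no called change. All 8 had a positive log2 change, from 0.08 to 0.46 with a median of 0.14. Under library totals alone that median became -0.14, beside -0.29 for all genes. It stood above the median of all genes by 0.14 with TMM and by 0.16 with library totals. An unadjusted p below 0.05 by edgeR was reached by 1 subunit gene, and DESeq2 and limma-voom called none. Cct2 was at 227 and 240 CPM in KO and 231 and 211 CPM in wild type, with overlapping groups (log2 change 0.08, SE 0.10). Tcp1 was at 184 and 197 CPM against 174 and 162 CPM (0.18, SE 0.10), and Cct5 at 192 and 174 CPM against 168 and 157 CPM (0.17, SE 0.10). KO lay above wild type for both, by less than 2 SE. The mitochondrial chaperonin pair Hspd1 and Hspe1 thus had called changes where the cytosolic one had none, a difference that was not itself tested.

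The BAG genes encode co-chaperones that release nucleotide from Hsp70 and couple it to other pathways. Of the 6, 2 rose (33.3%, beside 7.6% of all genes tested). Bag2, an inhibitor of the ubiquitin ligase CHIP, was at 7.12 and 7.78 CPM in KO and 2.73 and 2.49 CPM in wild type (log2 change 1.51, SE 0.30, adjusted p = 0.0234 by edgeR). Bag4, which also binds death receptors, was at 34.8 and 27.8 CPM in KO and 20.4 and 18.4 CPM in wild type (0.69, SE 0.18, adjusted p = 0.0459). Both groups were separate, yet DESeq2 called neither. Bag2 did not pass without KO replicate 2 (1.45), wild type replicate 1 (1.57) or wild type replicate 2 (1.44), and Bag4 did not without KO replicate 1 (0.53), wild type replicate 1 (0.76) or wild type replicate 2 (0.61). Bag6, part of the route that inserts tail-anchored proteins, was at 188 and 175 CPM in KO and 106 and 157 CPM in wild type. Its wild type libraries differed more than its KO libraries, and the change of 0.47 (adjusted p = 0.135) passed only without wild type replicate 2 (0.77, adjusted p = 0.00975). Bag3, which links Hsp70 to autophagy, was at 4.93 and 6.12 CPM in KO and 1.23 and 3.46 CPM in wild type (1.23, SE 0.49, adjusted p = 0.146). Bag5 changed by 0.28 and Bag1 by 0.05, and the groups overlapped for Bag1 alone among the 6.

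The heat shock factor genes themselves were not called. Hsf1 was at 49.1 and 49.3 CPM in KO and 38.9 and 40 CPM in wild type, a log2 change of 0.32 (SE 0.12, adjusted p = 0.136 by edgeR). Hsf2 was at 32.2 and 31.7 CPM in KO and 31.2 and 27.4 CPM in wild type (0.12, SE 0.15, adjusted p = 0.622). KO lay above wild type for both, narrowly for Hsf2. Hsf1 had an unadjusted p below 0.05 by edgeR, as did 3531 of the 12003 genes tested, and DESeq2 and limma-voom called neither.

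Small heat shock proteins, which hold unfolded clients without ATP, gave few counts. Of 6 genes, 3 were tested and none was called or had an unadjusted p below 0.05 by edgeR; DESeq2 and limma-voom also called none. Hspb11, a ciliary transport protein grouped here by its symbol alone, was at 46 and 54.8 CPM in KO and 55.2 and 72.3 CPM in wild type. Hspb6 and Hspb7 reached at most 6.37 CPM with overlapping groups. Hspb1, the Hsp27 gene, had 5 and 1 counts in KO and 0 in both wild type libraries, where 3 counts correspond to 0.410 to 0.416 CPM, and was not tested. Hspb8 and Hspb9 were not tested either, with at most 9 counts in a library. The other 3 untested members are J-proteins: Dnajb3 had 1 to 7 counts in a library, Dnajb7 had 7 to 14, and Dnajb8 had 0 in all 4 libraries.

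Only 1 member fell, and it is no chaperone: Hspbap1, caught by its prefix, encodes a protein that binds Hsp27. It was at 16.0 and 12.8 CPM in KO and 23.8 and 26.7 CPM in wild type, a log2 change of -0.81 (SE 0.19, adjusted p = 0.0348 by edgeR). The groups were separate, but the call was lost without KO replicate 2 (-0.64), without wild type replicate 2 (-0.73) and by DESeq2. Hspbp1, an Hsp70 nucleotide exchange factor whose symbol carries the same prefix, was at 12.6 and 11.1 CPM against 10.1 and 10.2 CPM and did not pass.

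The threshold cut through closely spaced members. The 5 called members nearest to it had adjusted p-values of 0.0265 to 0.0459, and the 5 nearest outside had 0.0527 to 0.0812. Among genes whose mean reached 5 CPM, the median absolute log2 difference of the 70 members was 0.149 between the KO libraries and 0.129 between the wild type libraries, beside 0.171 and 0.15 over 9822 genes. Among the 17 that rose, KO replicate 2 was above KO replicate 1 in 12 and wild type replicate 1 above replicate 2 in 15.

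Promoter letters were then counted over all members, as a description. RefSeq windows of 300 bases, from 250 before to 50 after each start, were found for 70 of the 84 members, for 13 of the 17 that rose and for 9118 of the tested genes. A 3-unit heat shock element (GAA, 2 bases, TTC, 2 bases, GAA, or the form that begins and ends with TTC, on either strand) was present for 4 of the 13 (30.8%, exact 95% binomial interval 9.09% to 61.4%): Hspd1 and Hspe1 through their shared site, Dnajb6, and Hsph1, where it lay after the start. It was present for 0 of 51 other tested members (interval up to 6.98%) and for 0.559% of all tested genes. The 2-unit core, GAANNTTC or TTCNNGAA, which every 3-unit match contains, was present for 6 of 13 (46.2%), 10 of 51 (19.6%) and 14.1% of all tested genes. The 6 include Hspa1a and Hspa1b, with promoters 98.8% identical, and the shared site of Hspd1 and Hspe1, so they are not 6 separate promoters. The endoplasmic reticulum stress element was present for 2 of 13, 1 of 51 and 0.154%. The CCAAT box that it contains was present for 53.8%, 37.3% and 43.2%, and TATAAA for 0 of 13, 5.88% and 8.54%. Such a match is a run of letters and not a measured binding site, and its absence from a window says nothing of a factor. The 3-unit form was thus met more often among members that rose than over all tested genes, with 13 genes behind the share and 2 of them reading the same site. The binomial interval treats the 13 as independent.

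Genes that carry other symbols but work with the members, or are known heat shock factor targets, were taken from lists of known function. The lists were drawn up with earlier results of these data known, and Trap1 and Sil1 were each in 2 lists. Of 22 genes listed as Hsp90 co-chaperones, with Trap1, itself an Hsp90, among them, 2 rose (9.09%) and 1 fell (4.55%). These shares are near the 7.6% higher and 5.17% lower over all genes tested, and the median log2 change was -0.03. Ptges3, the Hsp90 cochaperone p23, was at 50.6 and 49.2 CPM in KO and 31.4 and 30.7 CPM in wild type (0.68, adjusted p = 0.0173 by edgeR), and Tomm34, which binds Hsp70 and Hsp90, was at 122 and 107 CPM against 62.0 and 56.6 CPM (0.95, adjusted p = 0.0057). Stub1, the ligase CHIP, was at 27.4 and 27.1 CPM in KO and 41.1 and 38.8 CPM in wild type (-0.55, adjusted p = 0.0412). The groups of all 3 were separate. The Stub1 call was lost without any 1 library (-0.60 to -0.51) and the Ptges3 call without wild type replicate 1 (0.70) or 2 (0.66). The other 19 genes of this list did not pass, while Hsp90aa1 and Hsp90ab1 both did, a difference that was not itself tested.

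A list of disaggregation and other heat shock response genes had 5 of 14 called higher (35.7%, beside 7.6% of all genes tested) and a median of 0.41. Because it was drawn up with earlier results known, its share and median may reflect which genes were put in it. Among them were Gadd45b, a stress sensor, at 27.7 and 50.9 CPM in KO and 5.19 and 3.46 CPM in wild type (log2 change 3.17, adjusted p = 0.00347 by edgeR); Ier5, an activator of Hsf1, at 142 and 174 CPM against 59.7 and 57.2 CPM (1.44, adjusted p = 0.00188); and Rgs2, a regulator of G protein signalling (0.77, adjusted p = 0.00839). All 3 had separate groups and passed without any 1 library. Several of these genes also answer to signals other than heat shock.

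Of 20 endoplasmic reticulum folding and stress response genes that are no members, 4 rose (20%, beside 7.6% of all genes tested) and the median was 0.13. The called genes were the transcription factors Ddit3 (log2 change 0.66) and Atf4 (0.48), the lectin chaperone Calr (0.51) and the degradation factor Herpud1 (0.46), with adjusted p-values from 0.032 to 0.043 by edgeR. None of the 4 passed without KO replicate 2 (0.40 to 0.62) or without wild type replicate 2 (0.37 to 0.54), and Herpud1 also failed without wild type replicate 1 (0.48). None of 10 prefoldin and chaperonin cofactor genes (median 0.09) and none of 13 mitochondrial protease and import genes (median 0.16) was called by edgeR, DESeq2 or limma-voom, with 0 and 1 at an unadjusted p below 0.05. Of 31 proteasome subunit genes the single call was Psma6, lower by a log2 change of -0.52 (adjusted p = 0.0409), which was lost without KO replicate 1 (-0.51), KO replicate 2 (-0.52) or wild type replicate 1 (-0.39). The median over the proteasome was 0.01, next to that of all genes.

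**Figure D4:**
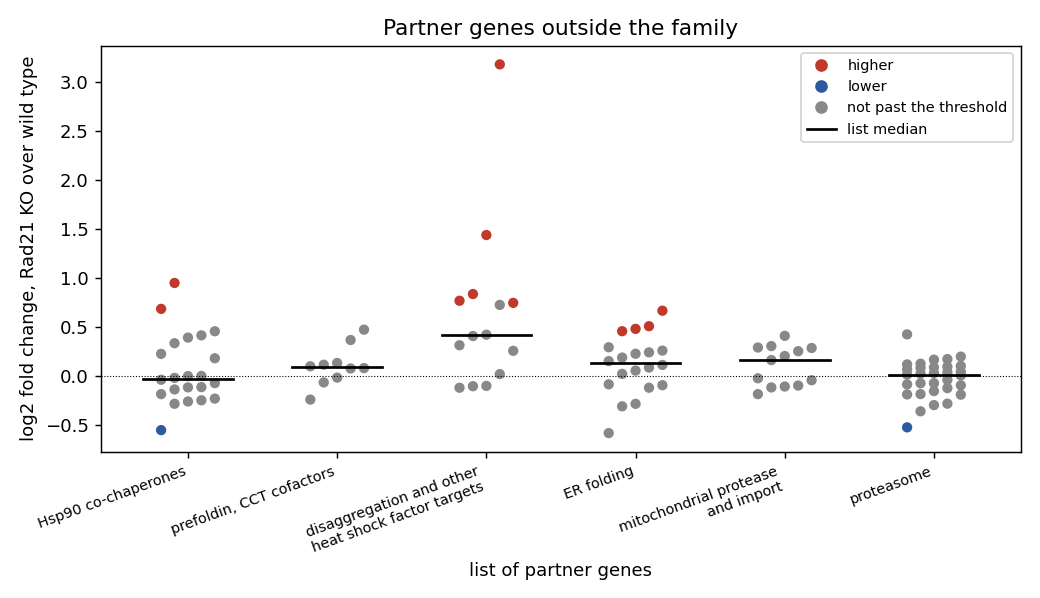
Log2 change (KO over wild type) of each tested gene in 6 lists of chaperone partner and heat shock response genes, 1 point per gene. Called genes are marked and the median of each list is drawn. The lists were drawn up with earlier results of these data known. The heat shock response list has the highest median, 0.41, and the proteasome list sits at 0.01.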

How the data were processed

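Ribosomal RNA was removed with RiboMinus before TruSeq library preparation, per the labels' protocols. The authors deposited whole-number count equivalents for Ensembl genes, treated here as estimated counts. The submitters' processing notes name the build mm9. The aligner, the counter and strand handling were not given in the sources used here. Counts split between near-identical or overlapping genes are therefore uncertain. Symbols were found for 17342 identifiers.

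Counts were rounded and tested in R 4.3.3 with edgeR 4.0.16 (filterByExpr, TMM, quasi-likelihood test, Benjamini-Hochberg over all genes tested), with 15 alternatives that included DESeq2 1.42.0 and limma-voom (limma 3.58.1). The procedure was tested on simulated data. The 3 counts taken as a floor equal 0.410 to 0.417 CPM per library, and intervals cover counting error only.

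Members and lists were chosen with earlier results of these data known. Named are all called members, up to 3 abundant uncalled members per role, the Bag and Hsf genes, Rad21, Lars2, Gm15564 and up to 4 called genes per partner list; 1 gene this rule selects is not reported here. Promoters come from RefSeq (GRCm38.p6). The mm9 peak lists and the ChIP-seq and Hi-C samples were not used here.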

Additional observations from a re-analysis of the deposited data

How the results depend on the processing

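Of the 17 members called higher, 15 or more stayed called under DESeq2 size factors, upper-quartile factors, DESeq2's own test, limma-voom, a minimum mean of 5 CPM and removal of Lars2 and Gm15564. Only 7 did under library totals alone, where 2 members were lower and the members' median became -0.13, and 9 without a filter on low counts, where no member was lower and 433 genes were called in place of 1533; the cause was not tested. Leaving out 1 library gave 12 to 17 members higher, 0 to 1 lower and 947 to 1438 genes called. Members called lower numbered 3 with upper-quartile factors or the 5 CPM minimum, 0 by DESeq2 and 2 without Lars2 and Gm15564. Requiring a change of 1.5-fold left 14 higher.

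The labels do not say whether replicates of the same number were paired. Deviations of replicate 1 from the genotype means correlated across genes at 0.0385, and at 0.008 for genes of at least 5 CPM. No broad difference was thus shared by replicate number, but such a correlation cannot decide whether the samples were paired. With the replicate number as a block, 16 members were called higher, 0 lower and 1025 genes in all; Bag4, Hspa4 and Hspbap1 lost their call and Dnajc15 gained one.

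Signs turned for members not called in the reported fit: under library totals alone Bag1 (-0.22), Cct2 (-0.20), Cct5 (-0.12), Dnajc5 (-0.28), Hsf2 (-0.16), Hspa4l (-0.19), Hspb7 (-0.19), Hspbp1 (-0.080) and Tcp1 (-0.095), and with upper-quartile factors Dnajc5 (-0.025). The median of all genes was itself -0.29 under library totals alone and -0.05 with upper-quartile factors. Leaving out 1 library also turned signs, with values from -0.042 to 0.16 for Bag1, -0.18 to 0.009 for Dnajc13, -0.70 to 2.33 for Dnajc15, -0.078 to 0.13 for Dnajc5, -0.025 to 0.19 for Hspa4l, -0.29 to 0.17 for Hspb6 and -0.12 to 0.31 for Hspb7. With 2 libraries per genotype, members of a few CPM such as Bag3 and Hspa1l carried SEs of 0.49 and 0.35, and a change near its SE could not be told from 0 there.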

Other observations

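The genes next to the called members were read as a description added after the data were seen, with no test. The nearest tested protein-coding gene on each side, by RefSeq order in GRCm38.p6, gave 31 genes that are no members. Of these 6 (19.4%) were called higher by edgeR, beside 7.6% of all genes tested; none was called lower, and their median log2 change was 0.10. Coq10b, which lies beside Hspd1 and encodes a coenzyme Q binding protein, rose by a log2 change of 1.30 (SE 0.22, adjusted p = 0.013 by edgeR), close to the 1.39 of Hspd1, whereas Mob4, on the far side of Hspe1, changed by 0.21 and did not pass. Fstl4, beside Hspa4, rose by 3.26 (SE 0.47, adjusted p = 0.00721), far more than Hspa4 at 0.43. Parp14 rose by 0.70 beside the 1 member that fell, Hspbap1 at -0.81. These 3 passed without any 1 library. Etf1 beside Hspa9 (0.53), Tuba4a beside Dnajb2 (0.95) and Dync1h1 beside Hsp90aa1 (0.43) were called too, but each lost its call on leaving out some libraries: Etf1 without KO replicate 2 (0.44) or wild type replicate 2 (0.45), Tuba4a without KO replicate 1 (0.67) or wild type replicate 2 (0.85), and Dync1h1 without KO replicate 1 (0.35), wild type replicate 1 (0.37) or wild type replicate 2 (0.49). Neu1, beside Hspa1b, changed by 0.03 with an SE of 0.12.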
